A study of Mus musculus with 9 samples.

Results

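The long noncoding RNA genes of mouse liver were examined in whole-liver RNA sequencing of acute hepatitis. The members were chosen by their label and their counts: autosomal genes that the deposited table labels lincRNA, antisense or processed_transcript, with at least 500 counts summed over the 9 libraries. They numbered 120 of the 34745 genes in the table, with 48 labelled lincRNA, 26 antisense and 46 processed_transcript, and all 120 were among the 13583 genes tested. The table held 5785 autosomal genes of these labels, of which 440 could be tested.

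The libraries came from livers of male C57BL/6 mice aged 6 to 8 weeks, in 3 groups of 3. The first group received WZB before D-gal/LPS (WZB + D-gal/LPS), the second received D-gal/LPS with no WZB, and the third was the control. D-galactosamine blocks transcription in hepatocytes and sensitises them to lipopolysaccharide, a bacterial product that activates macrophages, and the pair is a standard model of acute inflammatory liver failure. The labels do not spell out WZB. The series describes pretreatment with inhibitors of GLUT1, a glucose transporter of the cell membrane. Doses, times of treatment and what the control animals were given are not stated in the labels used here, and nothing states that each replicate was its own animal. The p-values therefore speak only of the variation among these 9 libraries, which may be partly technical. No group with WZB alone was analysed here.

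Long noncoding RNAs are transcripts that are not known to be translated into proteins of ordinary length. Some stay in the nucleus and help to build nuclear bodies, as Neat1 does for paraspeckles and as Malat1 does at nuclear speckles, where splicing factors gather. Others are precursors: small nucleolar RNAs (snoRNAs), which guide chemical modification of ribosomal RNA, are cut from introns of Gas5 and of the Snhg genes, and several microRNAs are cut from transcripts such as Mir22hg and Mir17hg. Many antisense transcripts start beside or run across a protein-coding gene, often that of a transcription factor of the same tissue.

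The labels were set against 2 annotations. GENCODE M21 held 118 of the 120 members and gave 45 as processed_transcript, 39 as lincRNA, 29 as antisense and 3 as protein-coding. RefSeq matched 103 by identifier, symbol or synonym, and listed 87 as long noncoding RNA, 13 as protein-coding, 2 as transcribed pseudogenes and 1 as a pseudogene. The RefSeq protein-coding entries included 1810058I24Rik, Cct6a, C330006A16Rik and Tmem134. The pseudogene was Gm42418, which RefSeq gives as a synonym of Rn18s-rs5, an 18S ribosomal RNA related sequence, and Gm26917 lies beside it on chromosome 17. The sources used here do not say whether library preparation or counting used strand. The spans of 68 members overlapped another gene that had counts, and the exons of 55 did, so for these the reads of the partners cannot be told apart. The label long noncoding RNA therefore holds for most members but not for all. Without the 15 members that either annotation lists as protein-coding or that lie at the ribosomal RNA sequence, the counts of genes higher and lower were 20 and 45 of 105 with D-gal/LPS against control, and 12 and 12 with WZB + D-gal/LPS against D-gal/LPS, a split chosen after seeing the data. Of all genes tested, 29.1% were higher and 29.3% lower in the first comparison, and 13.8% and 14.7% in the second.

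Of the members, 7 carried mature microRNAs of RefSeq within their span, 31 in all. The sequences below are those named with the host genes in the results, grouped so that RNAs that share a seed stand together, with bases 2 to 8 from the 5′ end, the seed that pairs with target messages, in capitals (RefSeq, GRCm38.p6). The mature microRNAs themselves were not measured in these libraries.

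miR-22-3p: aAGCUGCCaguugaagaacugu
miR-29b-3p: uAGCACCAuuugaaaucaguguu
miR-29c-3p: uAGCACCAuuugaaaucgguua
miR-15a-5p: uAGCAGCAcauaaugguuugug
miR-16-5p: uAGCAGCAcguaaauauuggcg
miR-17-5p: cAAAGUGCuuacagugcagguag
miR-20a-5p: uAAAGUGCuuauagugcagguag
miR-19a-3p: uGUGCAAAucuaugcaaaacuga
miR-19b-3p: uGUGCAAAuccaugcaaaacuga
miR-100-5p: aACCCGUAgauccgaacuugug
miR-125b-5p: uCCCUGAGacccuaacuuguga

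Mir22hg holds miR-22-3p at chr11:75463772-75463793 (plus strand), and A330023F24Rik holds miR-29b-3p and miR-29c-3p on chromosome 1, which share the seed AGCACCA. Dleu2 holds miR-15a-5p and miR-16-5p on chromosome 14, with the seed AGCAGCA. Mir17hg, also on chromosome 14, holds miR-17-5p and miR-20a-5p, which share AAAGUGC, and miR-19a-3p and miR-19b-3p, which share GUGCAAA. The member 2610203C20Rik, which RefSeq names Mir100hg, holds miR-100-5p at chr9:41531437-41531458 and miR-125b-5p at chr9:41581940-41581961 (plus strand).

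RefSeq promoters, 250 bases before to 50 after the start, were matched for 80 of the 120 members. They are shown for the member with the highest counts (Malat1), for a pair of members that were higher with D-gal/LPS and lower when WZB preceded it (Gm20559 and AU020206), and for a strongly lower member (Gm12909). Capitals mark the motif matches found.

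Malat1 (chr19:5802623-5802922, minus strand): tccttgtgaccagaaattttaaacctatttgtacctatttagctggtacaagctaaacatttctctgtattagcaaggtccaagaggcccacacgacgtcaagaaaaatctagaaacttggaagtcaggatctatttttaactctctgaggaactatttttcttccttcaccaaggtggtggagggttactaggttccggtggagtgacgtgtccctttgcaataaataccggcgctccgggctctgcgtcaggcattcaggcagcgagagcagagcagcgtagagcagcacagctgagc
Gm20559 (chr6:3346089-3346388, minus strand): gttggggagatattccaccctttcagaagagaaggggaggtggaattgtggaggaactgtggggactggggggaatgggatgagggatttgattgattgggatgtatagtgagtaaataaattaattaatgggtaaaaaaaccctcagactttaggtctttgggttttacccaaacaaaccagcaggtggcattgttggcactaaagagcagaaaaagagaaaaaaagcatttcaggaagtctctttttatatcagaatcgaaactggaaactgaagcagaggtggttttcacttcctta
AU020206 (chr7:75782071-75782370, minus strand): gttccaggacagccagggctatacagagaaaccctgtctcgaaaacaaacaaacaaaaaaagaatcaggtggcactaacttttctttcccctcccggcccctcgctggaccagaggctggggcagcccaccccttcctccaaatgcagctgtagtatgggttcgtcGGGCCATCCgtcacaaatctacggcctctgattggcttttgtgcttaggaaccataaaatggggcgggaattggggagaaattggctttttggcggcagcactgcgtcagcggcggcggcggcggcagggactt
Gm12909 (chr4:62088033-62088332, plus strand): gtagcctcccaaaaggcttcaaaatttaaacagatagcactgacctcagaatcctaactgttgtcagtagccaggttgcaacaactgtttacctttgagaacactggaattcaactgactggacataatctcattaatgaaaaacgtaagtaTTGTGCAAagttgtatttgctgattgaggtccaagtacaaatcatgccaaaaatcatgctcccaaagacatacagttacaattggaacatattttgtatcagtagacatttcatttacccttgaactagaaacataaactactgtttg

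In these windows AU020206 held the short NF-kB motif GGGNNNTCC, and Gm12909 held the C/EBP motif TTGCNNAA on the minus strand. The 8 motifs were searched on both strands, and matches of different motifs may overlap. The short NF-kB motif stood in 17 of the 80 member promoters (21.2%), against 17.4% of all 27025 promoters in the table, and the C/EBP motif in 12 (15%) against 10.7%. AP-1 (TGANTCA) stood in 6.25% of member promoters against 7.92%, and the E-box CACGTG in 10% against 7.24%. CRE (TGACGTCA) stood in 3.75% against 1.85%, and the D-box TTATGNAA in 1.25% against 3.53%. A longer NF-kB motif, given by name alone, stood in 5% against 1.63%, and an interferon element (ISRE) in 2.5% against 3.49%. Of the 13 promoters of members called higher with D-gal/LPS, 1 held the short NF-kB motif and 3 the C/EBP motif. A match is a run of letters, not a measured binding site.

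The 9 libraries held 15072509 to 18106895 counts. Replicates of a group had correlations of log CPM between 0.9703 and 0.981, and no library stood apart or repeated another. Between 13.4% and 20.3% of counts were mitochondrial, with the highest shares in the control libraries. Hepatocyte markers summed to between 151500 and 161700 CPM (counts adjusted for library size) with WZB + D-gal/LPS and between 117400 and 120200 CPM with D-gal/LPS alone. In control livers the sum was between 95540 and 97020 CPM, so the tissue matched its label. With D-gal/LPS against control, 3 of these 12 markers were higher and 3 lower, with a median log2 fold change of -0.1. Over all genes tested, 29.1% were higher and 29.3% lower. Neutrophil markers summed to between 294 and 331 CPM with WZB + D-gal/LPS, between 443 and 475 CPM with D-gal/LPS alone and between 6.46 and 7.30 CPM in control livers, with 13 of 13 higher with D-gal/LPS against control. Monocyte and macrophage markers summed to between 264 and 304 CPM with WZB + D-gal/LPS, between 445 and 454 CPM with D-gal/LPS alone and between 52.5 and 60.5 CPM in control livers, with 12 of 12 higher. None of these markers was at 0 in a whole group. Endothelial, stellate and red blood cell markers, summed, were also highest with D-gal/LPS alone, with 10 of 12, 10 of 11 and 7 of 7 higher than in control. In bulk tissue, fewer cells of a type and less RNA per cell cannot be told apart, and the part of these markers in the results was not tested.

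Levels of the members spanned a wide range. Mean FPKM, fragments per kilobase of gene scaled for depth, over the 9 libraries had a median of 2.45 and ran between 0.0442 for Kcnq1ot1 and 144 for AW112010, with 35 members under 1 and 18 at 10 or more. Only FPKM is used to set one gene against another here. The order at the top differed between groups. With WZB + D-gal/LPS, Malat1 led at 181 ± 2.41 FPKM (SD, n = 3), followed by AW112010 at 146 ± 12.5 FPKM. With D-gal/LPS alone, AW112010 stood at 205 ± 8.8 FPKM and Malat1 at 186 ± 21.4 FPKM, values whose libraries overlapped. In control livers AW112010 stood at 82.5 ± 11 FPKM, well above Gm20319 at 34.7 ± 2.67 FPKM, and Malat1 was at 20 ± 1.01 FPKM.

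With D-gal/LPS against control, 50 members were lower and 22 were higher. Together they made 60% of the 120, beside 58.4% of all 13583 genes tested (edgeR quasi-likelihood, Benjamini-Hochberg adjusted p under 0.05), so the share that changed was near the background. The split by direction differed from it: 41.7% of members were lower and 18.3% higher, beside 29.3% and 29.1% of all genes. Among the 10157 genes with at least 500 counts, 32.3% were lower and 28.5% higher. The median log2 fold change was -0.32 over members and -0.03 over all genes tested. Lower calls outnumbered higher calls for each label, with 17 and 12 of 48 lincRNA genes, 15 and 2 of 26 antisense genes, and 18 and 8 of 46 processed_transcript genes. Genes of the same labels under 500 counts had 95 lower and 40 higher of 320 tested. Groups did not overlap for 75 members (62.5%), beside 65.5% of all genes. A total of 500 counts can be reached through 1 group: 88 members had at least 167 counts, the minimum divided by the 3 groups, in each group, 16 in 2 groups and 16 in 1. A member that reached the minimum through 1 group must be high there, so its difference from the others is partly set by the choice.

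The members just above the minimum were Gm16973 and 4632415L05Rik, each with 504 counts, and Gm26588 with 516. Just below it were 5430416N02Rik with 486 counts, Snhg5 with 487 and 2810402E24Rik with 490. With D-gal/LPS against control, their log2 fold changes were -1.17, -1.29 and -1.54 inside the minimum and -0.70, -0.45 and -0.36 outside it.

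**Figure D1:**
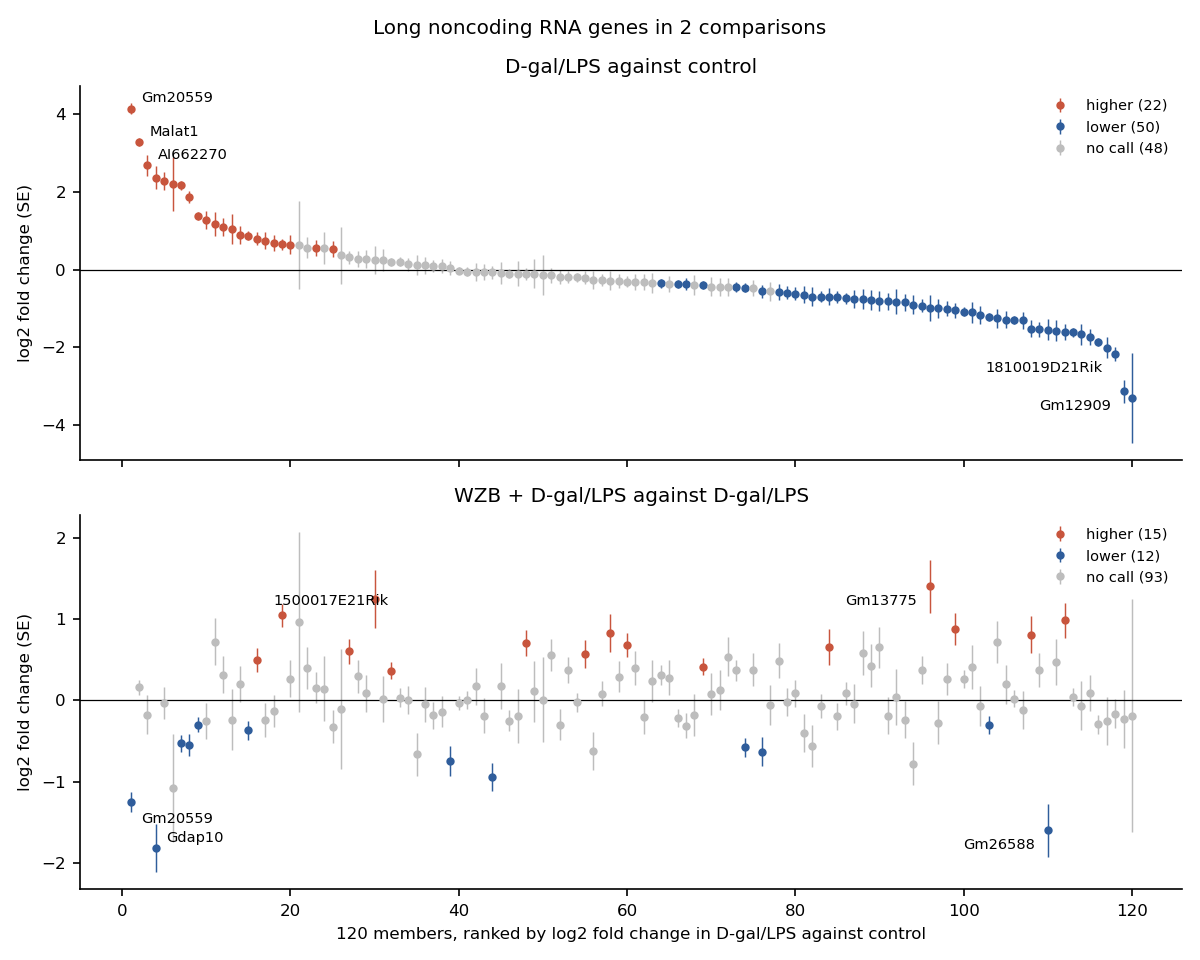
Log2 fold change with SE of the 120 members, ranked by D-gal/LPS against control in both panels, with genes called higher in red, lower in blue and the rest in grey. In the upper panel 22 are higher and 50 lower, led by Gm20559 and Malat1 at the high end, and in the lower panel 15 are higher and 12 lower with WZB + D-gal/LPS against D-gal/LPS.

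With WZB + D-gal/LPS against D-gal/LPS, 15 members were higher and 12 lower. These are 22.5% of members, beside 28.5% of all genes tested, with 12.5% higher beside 13.8% and 10% lower beside 14.7%. Of genes with at least 500 counts, 34.8% changed. The median log2 fold change was 0.03 over members and -0.02 over all genes. Groups did not overlap for 45 members (37.5%), beside 45.3% of all genes. This split depended on scaling: it was 6 higher and 19 lower when libraries were scaled by their totals, which moved the median of all genes to -0.22, and 21 higher and 9 lower with upper quartile factors. It also depended on single libraries: without D-gal/LPS replicate 1 there were 9 higher, and without D-gal/LPS replicate 2 there were 7. Against control, WZB + D-gal/LPS had 24 members higher and 45 lower (57.5%), beside 60.6% of all genes, of which 32.6% were higher and 28% lower. Groups did not overlap for 75 members (62.5%) in that comparison, beside 65.9% of all genes. The D-gal/LPS libraries stand in both of the first comparisons, so values of a gene in them are given side by side and no overlap is read.

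Among the nuclear transcripts, Malat1 was the member with the most counts and the second largest rise. Malat1 (ENSMUSG00000092341, chromosome 19, 5795690 to 5802672, minus strand, GRCm38) had 1804, 1953 and 1881 CPM with WZB + D-gal/LPS, 1433, 1864 and 1745 CPM with D-gal/LPS alone, and 171, 179.9 and 172 CPM in control livers. The control libraries lay far below all 6 others, which overlapped each other. With D-gal/LPS against control the rise was 9.66-fold (log2 fold change 3.27 ± 0.10 SE, adjusted p = 1.81e-11), and with WZB + D-gal/LPS against D-gal/LPS the difference did not pass the test (log2 fold change 0.16 ± 0.09 SE, adjusted p = 0.228). Neat1, the scaffold of paraspeckles, starts in the same region of chromosome 19 (5824708 to 5845478). It had 211, 287 and 268 CPM with WZB + D-gal/LPS, 356, 301 and 332 CPM with D-gal/LPS alone, and 198, 184 and 161 CPM in control livers. The groups with D-gal/LPS did not overlap the control libraries, and the WZB libraries lay below the D-gal/LPS ones. Neat1 was higher with D-gal/LPS (log2 fold change 0.86 ± 0.12 SE, adjusted p = 3.21e-05) and lower with WZB before it (log2 fold change -0.37 ± 0.12 SE, adjusted p = 0.0303). That second call was lost in 6 of 18 settings, among them upper quartile factors and leaving out D-gal/LPS replicate 1 or 3 or WZB + D-gal/LPS replicate 1 or 3, with adjusted p between 0.0544 and 0.119.

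Kcnq1ot1, which silences an imprinted cluster, was lower with D-gal/LPS against control (log2 fold change -0.69 ± 0.24 SE, adjusted p = 0.0253). That call was lost without control replicate 1 (adjusted p = 0.0678), control replicate 2 (0.0583) or D-gal/LPS replicate 2 (0.109). With limma on log2(FPKM + 0.1) the log2 fold change was -0.26 (adjusted p = 0.178), on values that lie below that pseudocount on average. Of 16 paraspeckle proteins, all tested, 4 were higher and 2 lower with D-gal/LPS, beside 29.1% and 29.3% of all genes tested, with a median log2 fold change of 0.10 beside -0.03. Nono, a core paraspeckle protein, was higher (log2 fold change 0.50 ± 0.08 SE, adjusted p = 0.000122) and Ewsr1 lower (log2 fold change -0.62 ± 0.07 SE, adjusted p = 1.02e-05). With WZB before D-gal/LPS, 4 of the 16 were lower and none higher, beside 14.7% and 13.8% of all genes. They included Sfpq (log2 fold change -0.61 ± 0.09 SE, adjusted p = 0.000317), which binds Neat1. 

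The share of all counts that fell on the 120 members was 0.358% ± 0.00163 with WZB + D-gal/LPS, 0.389% ± 0.0156 with D-gal/LPS alone and 0.246% ± 0.0102 in control livers (SD, n = 3 each). The groups did not overlap, and the exact two-sided permutation test gave p = 0.1 for each pair, the smallest that 3 against 3 libraries allow. Malat1 took 0.169%, 0.173% and 0.0187% of counts in the same groups. Without it, the other members held 0.189% ± 0.00282 with WZB + D-gal/LPS, 0.216% ± 0.0114 with D-gal/LPS alone and 0.227% ± 0.00925 in control livers, so the higher share of the injured livers rested on 1 gene. The difference of D-gal/LPS from control was then -0.011 percentage points (exact permutation p = 0.5), and that of WZB + D-gal/LPS from control was -0.0379 (exact permutation p = 0.1). These are shares of raw totals. With libraries scaled by their totals, the median log2 fold change of all genes tested was -0.22 with WZB + D-gal/LPS against D-gal/LPS. Against control it was -0.179 with WZB + D-gal/LPS and -0.085 with D-gal/LPS. A typical gene thus also held a smaller share with WZB, and whether the members differed from it was not tested.

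**Figure D2:**
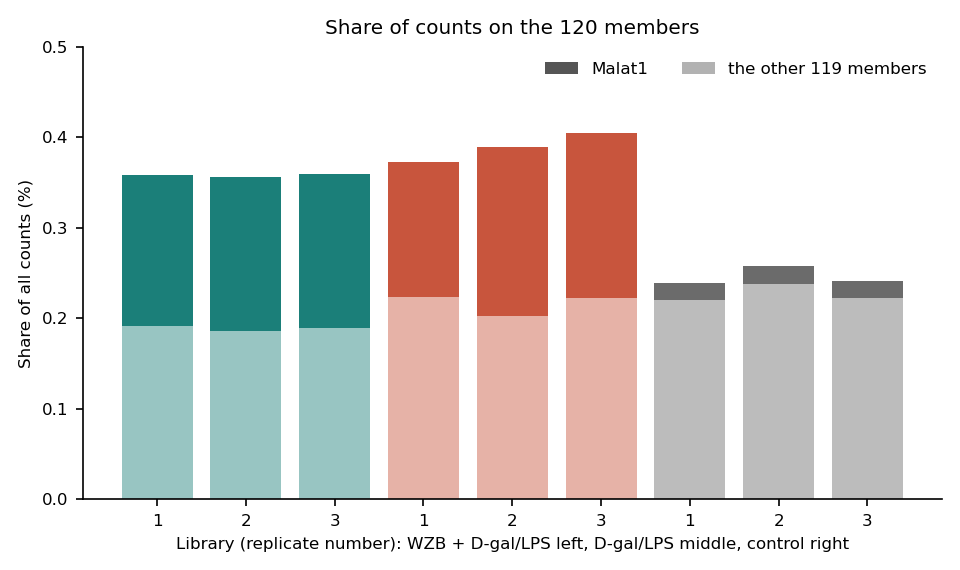
Share of all counts on the 120 members in each library, in percent, split into Malat1 (dark) and the other members (light), with the groups from left to right WZB + D-gal/LPS, D-gal/LPS and control. The dark part is 0.169%, 0.173% and 0.0187% on average in these groups, and the light part is lowest with WZB + D-gal/LPS.

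Members known from inflammation and those with the largest rises came next. The list of inflammation-linked noncoding genes had 4 members tested of 13, of which 3 were higher and 1 lower with D-gal/LPS (median 1.12), and 3 were lower with WZB before it. Of all genes tested, 29.1% were higher and 29.3% lower in the first comparison (median -0.03), and 14.7% were lower in the second. Monocyte and macrophage markers moved beside them, with 12 of 12 higher with D-gal/LPS against control and 9 of 12 lower with WZB before it. AW112010, induced by interferon gamma and by bacterial products in immune cells, had 131, 131 and 112 CPM with WZB + D-gal/LPS, 154, 149.9 and 156 CPM with D-gal/LPS alone, and 53.9, 66.5 and 56.8 CPM in control livers. All D-gal/LPS libraries exceeded both other groups, and the control libraries were lowest. It was higher with D-gal/LPS (log2 fold change 1.37 ± 0.10 SE, adjusted p = 4.09e-08) and lower with WZB before it (log2 fold change -0.30 ± 0.09 SE, adjusted p = 0.0295). The second call was lost without D-gal/LPS replicate 1 (adjusted p = 0.0744) or 3 (0.095), without WZB + D-gal/LPS replicate 3 (0.129), and with upper quartile factors (0.101).

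AU020206, which lies on chromosome 7 with no overlapping gene, had 19.9, 24.3 and 24.1 CPM with WZB + D-gal/LPS, 32.6, 31.8 and 35.4 CPM with D-gal/LPS alone, and 8.3, 7.9 and 11.1 CPM in control livers. The 3 groups did not overlap. It was 3.64-fold higher with D-gal/LPS (log2 fold change 1.87 ± 0.14 SE, adjusted p = 1.25e-07) and lower with WZB before it (log2 fold change -0.55 ± 0.14 SE, adjusted p = 0.00981). AI506816 on chromosome 5 showed the same order of groups, with 20.1, 20.9 and 20.5 CPM with WZB + D-gal/LPS, 31, 29.1 and 28.4 CPM with D-gal/LPS alone, and 6.03, 7.12 and 6.52 CPM in control livers. Its log2 fold changes were 2.17 ± 0.11 (SE) with D-gal/LPS (adjusted p = 2.48e-09) and -0.53 ± 0.11 with WZB before it (adjusted p = 0.00261).

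Gm20559 had the largest rise of all members. It lies on chromosome 6 (3333194 to 3346128, minus strand), 26129 bases from Samd9l, an interferon-induced antiviral gene on the same strand. It had 28.6, 26.1 and 29.2 CPM with WZB + D-gal/LPS, 70.3, 62.1 and 67.1 CPM with D-gal/LPS alone, and 2.89, 4.16 and 4.27 CPM in control livers. The groups were far apart, with the WZB libraries between the other groups. The rise with D-gal/LPS was 17.5-fold (log2 fold change 4.13 ± 0.15 SE, adjusted p = 4.78e-11), and with WZB before it the level was lower (log2 fold change -1.25 ± 0.13 SE, adjusted p = 1.91e-05). Samd9l itself had a log2 fold change of 2.94 ± 0.12 SE, adjusted p = 1.88e-10, and a log2 fold change of -1.25 ± 0.11 SE, adjusted p = 8.29e-06, in the same 2 comparisons. Gm20559 stayed higher with WZB + D-gal/LPS than in control livers (log2 fold change 2.88 ± 0.14 SE, adjusted p = 2.5e-09).

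Gdap10, on chromosome 12 within the span of Nampt, a rate-limiting enzyme of NAD synthesis, had 1.63, 2.19 and 3.44 CPM with WZB + D-gal/LPS, 9.13, 7.18 and 9.56 CPM with D-gal/LPS alone, and 2.21, 1.09 and 1.72 CPM in control livers. The WZB and control libraries overlapped, and both lay below D-gal/LPS alone. It was higher with D-gal/LPS (log2 fold change 2.36 ± 0.30 SE, adjusted p = 1.62e-05) and had the largest fall of any member with WZB before it (log2 fold change -1.82 ± 0.29 SE, adjusted p = 0.000518). Against control, the WZB group did not pass the test (log2 fold change 0.54 ± 0.32 SE, adjusted p = 0.162). Nampt is on the same strand, without shared exons, and had a log2 fold change of 1.18 ± 0.08 SE, adjusted p = 5.02e-08, and a log2 fold change of -0.95 ± 0.08 SE, adjusted p = 7.7e-06. Reads from Nampt introns and from Gdap10 cannot be told apart. Most counts of Gdap10 fell in the libraries of D-gal/LPS alone, so it reached the count minimum mainly through that group. Its rise and its fall are therefore partly set by the choice of members, and their adjusted p adds no support.

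Other members rose with D-gal/LPS and did not pass the test with WZB before it. AI662270, 8422 bases from Slfn3 on chromosome 11, had 6.02, 10.3 and 7.43 CPM with WZB + D-gal/LPS, 8.84, 8.63 and 9.21 CPM with D-gal/LPS alone, and 1.11, 0.965 and 2.03 CPM in control livers. The control libraries lay below all others, and the WZB group spanned the D-gal/LPS one (log2 fold change 2.68 ± 0.28 SE, adjusted p = 2.36e-06, with D-gal/LPS against control). Slfn3, a Schlafen family gene, rose by 6.34 on the log2 scale. Gm28177 shares exons with other genes, so its reads cannot be told apart from theirs, and had 390, 72 and 488 counts with WZB + D-gal/LPS, 933, 540 and 745 counts with D-gal/LPS alone, and 78, 260 and 163 counts in control livers. Its libraries varied widely within each group, and its rise with D-gal/LPS (log2 fold change 2.20 ± 0.70 SE, adjusted p = 0.0336) was lost without control replicate 1 or 3, any 1 of the D-gal/LPS libraries, or WZB + D-gal/LPS replicate 1, with adjusted p between 0.0503 and 0.0968.

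**Figure D3:**
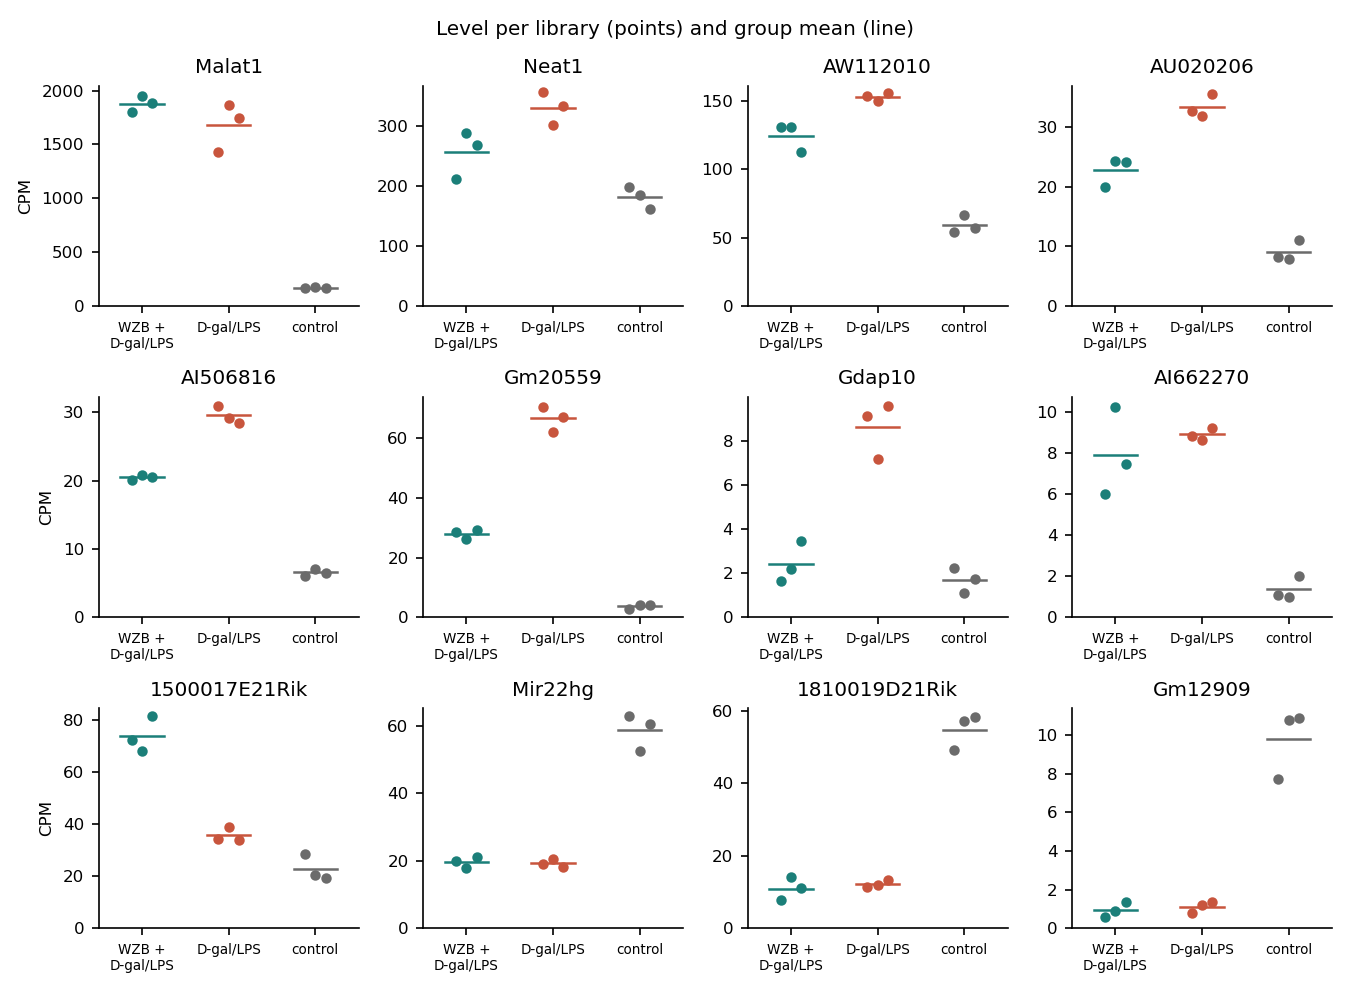
CPM of 12 members in each library (points) with the group mean (line), on linear axes that start at 0, with WZB + D-gal/LPS left, D-gal/LPS in the middle and control right. Malat1 is high in both D-gal/LPS groups, Gm20559, AU020206 and AI506816 lie in between with WZB, Gdap10 is near the control level with WZB, and Mir22hg, 1810019D21Rik and Gm12909 are low in both D-gal/LPS groups.

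A snoRNA of GENCODE M21 lay within the span of 13 members. The list of snoRNA hosts, made by symbol, had 21 genes, of which 8 were members. It left out Cct6a, 1110038B12Rik, 2410006H16Rik, Gm15832 and AI506816, the last with an entry named Mir3096. With D-gal/LPS, 4 of the 8 listed hosts were lower and 1 higher, with a median log2 fold change of -0.57. Of all genes tested, 29.3% were lower and 29.1% higher, with a median of -0.03. The summed level of the 8 listed hosts was between 79.5 and 90.3 CPM with WZB + D-gal/LPS and between 72.4 and 87.9 CPM with D-gal/LPS alone. In control livers it was between 102.6 and 103.4 CPM. Snhg3, which holds Snora73a and Snora73b, moved most of these 8. It had 4.81, 4.07 and 4.67 CPM with WZB + D-gal/LPS, 2.43, 1.85 and 2.54 CPM with D-gal/LPS alone, and 7.2, 5.85 and 7.66 CPM in control livers. The groups did not overlap, with D-gal/LPS alone lowest. Snhg3 was lower with D-gal/LPS (log2 fold change -1.60 ± 0.21 SE, adjusted p = 2.26e-05) and higher with WZB before it (log2 fold change 0.99 ± 0.22 SE, adjusted p = 0.00423), while Rcc1, which shares exons with it on the same strand, had a log2 fold change of -0.13 ± 0.18 SE, adjusted p = 0.558, and a log2 fold change of 0.50 ± 0.18 SE, adjusted p = 0.0533.

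Gas5, a growth-arrest transcript with many snoRNAs, did not pass the test in either comparison (log2 fold change -0.20 ± 0.12 SE, adjusted p = 0.166, and -0.02 ± 0.12, adjusted p = 0.912). Snhg17 was lower with D-gal/LPS (log2 fold change -0.74 ± 0.14 SE, adjusted p = 0.000609). Snhg20 and Snhg6 were also lower (log2 fold changes -0.78 ± 0.26 and -0.57 ± 0.21). Snhg20's call was lost without control replicate 3 or D-gal/LPS replicate 1 or 2 (adjusted p up to 0.103), and Snhg6's without control replicate 1 or 3 or any 1 D-gal/LPS library (up to 0.0991). Snhg8 and Snhg12 had log2 fold changes of -0.44 ± 0.25 and -0.56 ± 0.24 and did not pass.

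Among the listed snoRNA hosts, only Snhg1 was called higher with D-gal/LPS (log2 fold change 0.52 ± 0.21 SE, adjusted p = 0.0446). Snhg1 lost this call in 9 of 18 settings, among them without control replicate 2 (adjusted p = 0.125) or 3 (0.165), without D-gal/LPS replicate 1 (0.0899) or 3 (0.155), and without WZB + D-gal/LPS replicate 3 (0.0507). It starts 106 bases from Slc3a2, a heavy chain of amino acid transporters on the opposite strand, which had a log2 fold change of 1.16 ± 0.09 SE, adjusted p = 1.07e-07. Of 15 snoRNP core and assembly proteins tested, 4 were higher and 6 lower with D-gal/LPS (median -0.13), beside 29.1% and 29.3% of all genes tested (median -0.03). Fbl, the methyltransferase of box C/D snoRNPs, had a log2 fold change -0.40 ± 0.11 SE, adjusted p = 0.00629, and Nufip1, an assembly factor, had a log2 fold change -0.94 ± 0.19 SE, adjusted p = 0.000727.

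Of 15 microRNA host genes on the list, 4 were members tested under the listed symbol (Mir22hg, Mir17hg, Dleu2 and Meg3). With D-gal/LPS 1 was higher and 2 were lower, with a median of -0.17. Over all genes tested, 29.1% were higher and 29.3% lower, with a median of -0.03. Mir22hg, the precursor of the miR-22-3p shown above, had 20, 18 and 21.2 CPM with WZB + D-gal/LPS, 19.1, 20.5 and 18.1 CPM with D-gal/LPS alone, and 63, 52.7 and 60.5 CPM in control livers. All 6 D-gal/LPS libraries, with or without WZB, lay below every control library. It was lower with D-gal/LPS (log2 fold change -1.61 ± 0.11 SE, adjusted p = 3.64e-08), and with WZB before it the difference did not pass the test (log2 fold change 0.04 ± 0.11 SE, adjusted p = 0.839). Tlcd2, which shares exons with it on the same strand, had a log2 fold change of -0.03 ± 0.09 SE, adjusted p = 0.796, with D-gal/LPS against control.

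A330023F24Rik, the host of miR-29b-3p and miR-29c-3p, was described after its values were seen, for the microRNAs it holds. It had 62, 85 and 106 counts with WZB + D-gal/LPS, 58, 80 and 80 counts with D-gal/LPS alone, and 220, 209 and 242 counts in control livers. The control libraries lay above all others (log2 fold change -1.54 ± 0.20 SE, adjusted p = 2.03e-05, with D-gal/LPS against control). Dleu2, the host of miR-15a-5p and miR-16-5p, was lower by a smaller amount (log2 fold change -0.46 ± 0.13 SE, adjusted p = 0.00835).

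Rises were seen in hosts too. Mir17hg, the precursor of the miR-17 to miR-92a cluster, had 4.6, 5.65 and 7.43 CPM with WZB + D-gal/LPS, 8.78, 6.59 and 5.72 CPM with D-gal/LPS alone, and 3.14, 2.65 and 2.92 CPM in control livers. Both D-gal/LPS groups lay above the control libraries (log2 fold change 1.28 ± 0.23 SE, adjusted p = 0.000373, with D-gal/LPS against control). The member 2610203C20Rik, host of miR-100-5p and miR-125b-5p, had 5.52, 7.69 and 6.57 CPM with WZB + D-gal/LPS, 6.7, 6.46 and 7.08 CPM with D-gal/LPS alone, and 1.72, 1.15 and 1.3 CPM in control livers. Here too the control libraries were lowest, and the others overlapped (log2 fold change 2.28 ± 0.22 SE, adjusted p = 1.4e-06, and log2 fold change -0.04 ± 0.20 SE, adjusted p = 0.92 with WZB before D-gal/LPS). Meg3, an imprinted transcript, did not pass with D-gal/LPS (log2 fold change 0.11 ± 0.25 SE, adjusted p = 0.736). Of 13 microRNA processing proteins, 8 were lower and 2 higher with D-gal/LPS (median -0.63), beside 29.3% and 29.1% of all genes tested (median -0.03). Dicer1, which cuts precursors to mature length, had a log2 fold change -1.22 ± 0.11 SE, adjusted p = 4.94e-07, and Ago2, which carries the mature strand, had a log2 fold change 1.01 ± 0.14 SE, adjusted p = 2.79e-05.

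**Figure D4:**
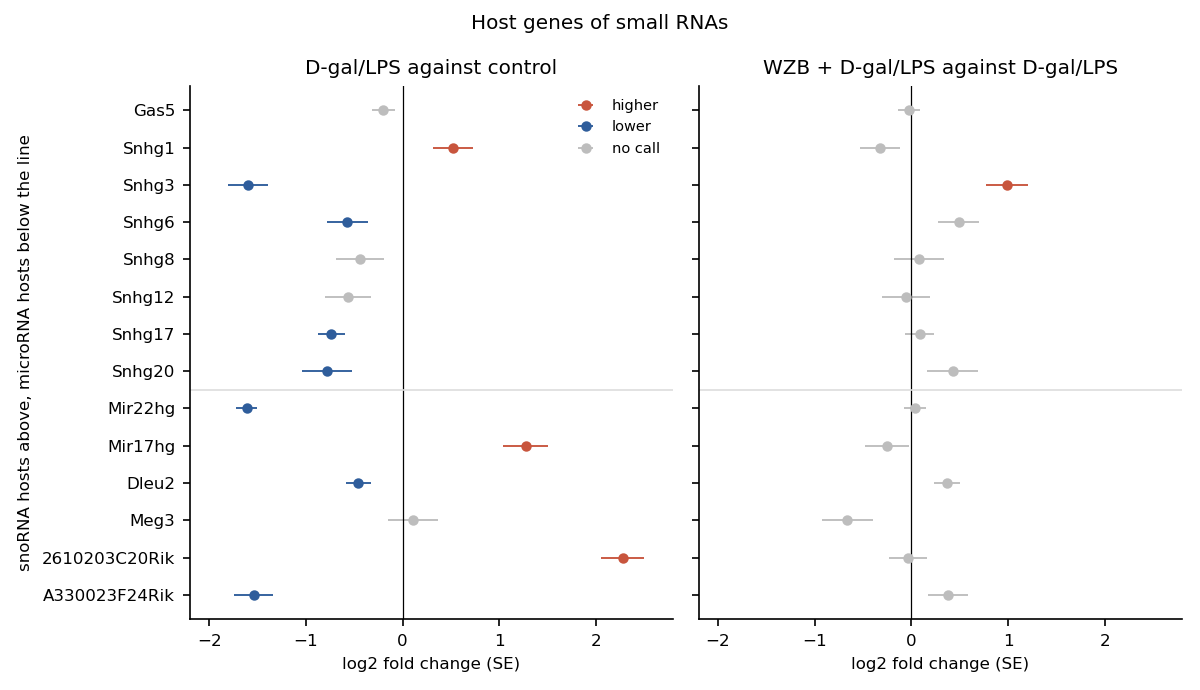
Log2 fold change with SE of 8 snoRNA hosts (above the line) and 6 microRNA hosts (below it) in 2 comparisons, with genes called higher in red, lower in blue and the rest in grey. Mir22hg, A330023F24Rik and Snhg3 are lowest and 2610203C20Rik highest with D-gal/LPS against control, and Snhg3 is the host called with WZB + D-gal/LPS against D-gal/LPS.

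Among the largest falls with D-gal/LPS were members near or across protein-coding genes. The spans of Gm12909, Gm8883, Gm16348 and 4632404H12Rik overlapped no other gene with counts. Gm12909, which lies 946 bases from Mup3, a major urinary protein gene, on the opposite strand, had 0.566, 0.904 and 1.35 CPM with WZB + D-gal/LPS, 0.809, 1.19 and 1.36 CPM with D-gal/LPS alone, and 7.75, 10.8 and 10.9 CPM in control livers. Every control library lay above every other library. It fell by 3.13 on the log2 scale (SE 0.30, adjusted p = 9.15e-07), while Mup3 had a log2 fold change of 0.25 ± 0.10 SE, adjusted p = 0.0435. Mup genes are near-identical copies, so counts near them are uncertain. Gm4673, antisense to Lsr, had a larger fitted fall (log2 fold change -3.31 ± 1.16 SE, adjusted p = 0.0451), but had 22, 2 and 8 counts with WZB + D-gal/LPS, 6, 20 and 15 counts with D-gal/LPS alone, and 200, 10 and 234 counts in control livers, and the low control library overlapped the others. Gm4673 was named after its values were seen. Most counts of Gm12909 and Gm4673 fell in the control libraries, so both reached the count minimum mainly through that group. Their falls are therefore partly set by the choice of members, and their adjusted p adds no support.

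1810019D21Rik runs across Esrp2, an epithelial splicing regulator, on the opposite strand of chromosome 8. It had 7.71, 14.2 and 11 CPM with WZB + D-gal/LPS, 11.4, 11.9 and 13.4 CPM with D-gal/LPS alone, and 49, 57 and 58.2 CPM in control livers. The control group lay above both others (log2 fold change -2.16 ± 0.18 SE, adjusted p = 3.9e-07), and Esrp2 had a log2 fold change of -2.50 ± 0.11 SE, adjusted p = 3.05e-10. The shared exons mean that their reads cannot be told apart. Gm8883 on chromosome 1 overlaps no gene with counts. It had 8.14, 7.99 and 8.23 CPM with WZB + D-gal/LPS, 9.47, 9.42 and 11 CPM with D-gal/LPS alone, and 36.1, 35.3 and 37.5 CPM in control livers. Its groups did not overlap between control and D-gal/LPS (log2 fold change -1.86 ± 0.11 SE, adjusted p = 9.34e-09). Others among the 10 largest falls were 1810034E14Rik at -2.01 ± 0.27, Gm17491 at -1.74 ± 0.21, Gm16348 at -1.67 ± 0.28, 4632404H12Rik at -1.57 ± 0.27 and Gm26588 at -1.54 ± 0.26 on the log2 scale. At least for 1810034E14Rik, 4632404H12Rik and Gm26588, most counts fell in the control libraries. Like those of Gm12909 and Gm4673, their falls are partly set by the choice of members.

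Of the liver-linked list, 4 of 12 genes were members, with 1 higher and 1 lower with D-gal/LPS, beside 29.1% and 29.3% of all genes tested. 0610005C13Rik, a liver-enriched transcript whose span overlaps that of Bcat2, had 35.2, 43.1 and 48.4 CPM with WZB + D-gal/LPS, 50.3, 53.5 and 52.3 CPM with D-gal/LPS alone, and 120.3, 123 and 121 CPM in control livers. The control libraries were far above the others (log2 fold change -1.22 ± 0.10 SE, adjusted p = 3.59e-07). Bcat2, an enzyme of branched-chain amino acid catabolism, had a log2 fold change of -1.05 ± 0.13 SE, adjusted p = 1.36e-05. GENCODE M21 held no entry for 0610005C13Rik, so its strand, its exons and any reads shared with Bcat2 could not be checked. Gm16551 and Fendrr had log2 fold changes of -0.13 ± 0.52 and -0.07 ± 0.21 and did not pass.

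Neighbouring protein-coding genes were found for 109 members within 100 kb. With D-gal/LPS against control, both partners were called in 48 pairs (44.0%), of which 31 (64.6%) moved the same way. Among 11733 pairs of neighbouring protein-coding genes, both were called in 33.6%, and 61.3% of those moved the same way. Where the spans overlapped, 15 of 19 pairs called moved the same way (78.9%), beside 62.9% of such protein-coding pairs, and where they lay apart 16 of 29 did (55.2%), beside 61.0%. With WZB + D-gal/LPS against control, which shares the control libraries, the members' shares were below those of protein-coding pairs: 25 of 47 called pairs moved the same way (53.2%), beside 58.1%, and 11 of 20 (55.0%) where spans overlapped, beside 60.3%. With WZB + D-gal/LPS against D-gal/LPS both partners were called in 7 pairs (6.42%), beside 9.66% of protein-coding pairs. Of these 7 pairs, 5 moved the same way (71.4%), beside 65.2% of the protein-coding pairs called. These shares are descriptions, since neighbours share sequence and, without strand, reads.

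Several members beside transcription factors had values unlike those of the factor. 9030622O22Rik lies 2674 bases from Foxa2, a pioneer factor of liver, and had a log2 fold change of 0.68 ± 0.20 (adjusted p = 0.00924), beside a log2 fold change of -1.33 ± 0.19 SE, adjusted p = 4.25e-05, for Foxa2. Tbx3os1 did not pass (log2 fold change -0.11 ± 0.12 SE, adjusted p = 0.494), beside a log2 fold change of -3.51 ± 0.18 SE, adjusted p = 1.63e-09, for Tbx3, a T-box factor of liver development. Fendrr, named above, starts 1276 bases from Foxf1, a factor of mesenchymal cells such as stellate cells, which had a log2 fold change of 3.26 ± 0.23 SE, adjusted p = 5.36e-08. The differences within these pairs were not tested, and 9030622O22Rik and Tbx3os1 were named after their values were seen. Prox1os (log2 fold change -0.70 ± 0.22 SE, adjusted p = 0.014) and Prox1, a regulator of hepatocyte fate (log2 fold change of -1.99 ± 0.12 SE, adjusted p = 1.18e-08), were both lower, though the call of Prox1os was lost without control replicate 2 (adjusted p = 0.0619) or D-gal/LPS replicate 3 (0.063).

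**Figure D5:**
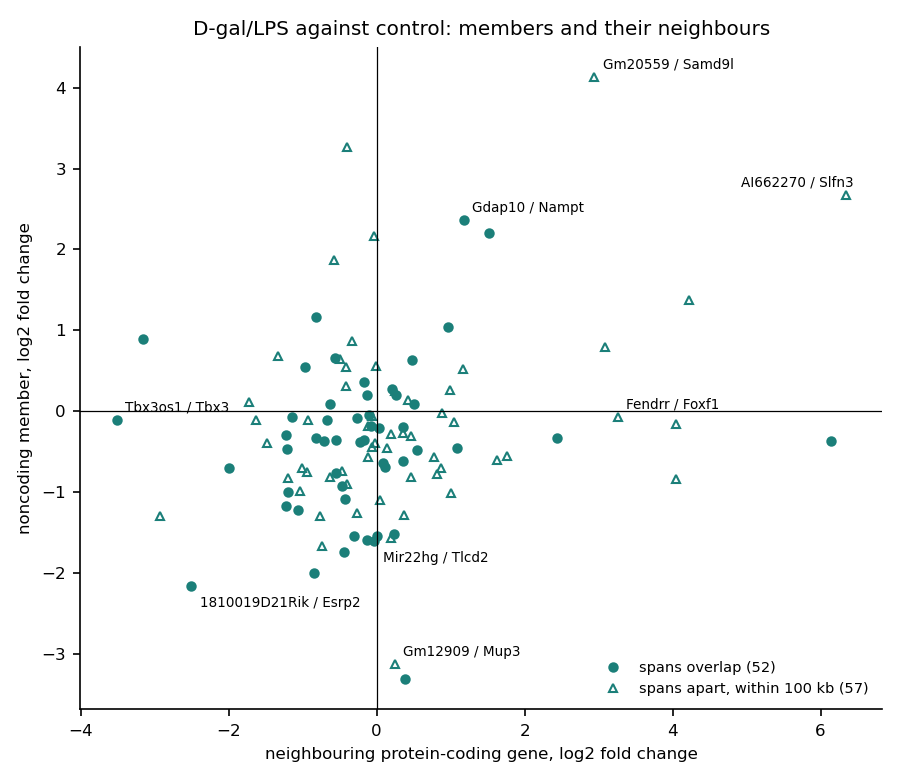
Log2 fold change of 109 members (vertical axis) against that of the neighbouring protein-coding gene (horizontal axis) with D-gal/LPS against control, with filled circles for overlapping spans and triangles for spans apart. Gm20559 and AI662270 lie high with their neighbours, 1810019D21Rik lies low with Esrp2, and Tbx3os1 and Fendrr lie near 0 beside neighbours that are far lower and far higher.

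With WZB before D-gal/LPS, the higher member with the lowest adjusted p was 1500017E21Rik, which RefSeq names Hectd2os, on chromosome 19 opposite to Hectd2. It had 72.5, 68 and 81.7 CPM with WZB + D-gal/LPS, 34.4, 38.8 and 34.1 CPM with D-gal/LPS alone, and 28.6, 20.4 and 19.2 CPM in control livers. All 3 groups were apart, with WZB + D-gal/LPS highest. It was higher with WZB before D-gal/LPS (log2 fold change 1.05 ± 0.14 SE, adjusted p = 0.000133) and also higher with D-gal/LPS against control (log2 fold change 0.65 ± 0.14 SE, adjusted p = 0.00129). Hectd2, whose exons it overlaps, had a log2 fold change of -0.34 ± 0.29 SE, adjusted p = 0.425, in the first of these comparisons.

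Gm5524 and 9630013D21Rik were higher with WZB before D-gal/LPS, at 0.88 ± 0.20 and 0.71 ± 0.16 on the log2 scale (adjusted p = 0.00519 and 0.00524). Gm5524 had been lower with D-gal/LPS against control (log2 fold change -1.05 ± 0.20 SE, adjusted p = 0.00044). C330006A16Rik, which RefSeq lists as protein-coding, was lower with D-gal/LPS (-0.40 ± 0.10) and higher with WZB before it (0.42 ± 0.10), and Tmem134, a protein-coding gene by RefSeq, was higher with WZB before it (0.68 ± 0.15). The second call of C330006A16Rik did not hold when libraries were scaled by their totals (adjusted p = 0.105) or with limma on FPKM (0.0813), and that of Tmem134 with limma (0.0541). Fam120aos and 4930481A15Rik were higher too, at 0.83 ± 0.23 and 0.81 ± 0.23. The call of Fam120aos was lost without D-gal/LPS replicate 1 (adjusted p = 0.0643) or 2 (0.0873) or WZB + D-gal/LPS replicate 1 (0.0856), and that of 4930481A15Rik without D-gal/LPS replicate 2 (0.0817) or 3 (0.0684) or WZB + D-gal/LPS replicate 2 (0.0544). Hepatocyte markers moved beside these rises, with 7 of 12 higher and 0 lower with WZB before D-gal/LPS, beside 13.8% and 14.7% of all genes tested. The part of these markers was not tested. Gm13775 had the largest rise of all with WZB (log2 fold change 1.41 ± 0.32 SE, adjusted p = 0.00949), but it shares exons with a Mup pseudogene, and its fall with D-gal/LPS was lost without any 1 control library (adjusted p between 0.0528 and 0.0616).

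The falls with WZB before D-gal/LPS included members that were not called higher with D-gal/LPS. Gm26588, antisense to Mgll, a lipase of monoglycerides, had 0.708, 1.06 and 0.614 CPM with WZB + D-gal/LPS, 1.79, 3.23 and 2.18 CPM with D-gal/LPS alone, and 5.9, 7 and 7.98 CPM in control livers. The 3 groups did not overlap and the WZB libraries were lowest (log2 fold change -1.60 ± 0.33 SE, adjusted p = 0.0027). Most of its 516 counts fell in the control libraries, through which it mainly reached the count minimum. Its place below control in both other groups is therefore partly set by the choice of members, and the fall with WZB rests on low counts. Gm2788, antisense to E2f8, a cell cycle repressor, had 11.2, 10.6 and 9.34 CPM with WZB + D-gal/LPS, 24.5, 15 and 20.1 CPM with D-gal/LPS alone, and 19.3, 24.2 and 19.4 CPM in control livers. The WZB libraries lay below all others, which overlapped (log2 fold change -0.94 ± 0.17 SE, adjusted p = 0.00131). 1700028E10Rik and 0610031O16Rik, the second antisense to Adh7, were also lower (log2 fold changes -0.75 ± 0.18 and -0.58 ± 0.12, adjusted p = 0.00829 and 0.00281).

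Both members at the ribosomal RNA sequence varied within groups. Gm26917 had 258, 108 and 137 CPM with WZB + D-gal/LPS, 81.2, 52.4 and 77.6 CPM with D-gal/LPS alone, and 47.4, 62.3 and 67.2 CPM in control livers. WZB + D-gal/LPS replicate 1 was far above its group, and the rise with WZB (log2 fold change 1.25 ± 0.36 SE, adjusted p = 0.0431) was lost in 13 of 18 settings, among them without any 1 control or D-gal/LPS library or without WZB + D-gal/LPS replicate 3, with adjusted p between 0.0581 and 0.14. Gm42418 had 48.1, 77.5 and 65.4 CPM with WZB + D-gal/LPS, 61.9, 89.6 and 74.6 CPM with D-gal/LPS alone, and 35.3, 47.1 and 52.9 CPM in control livers and was higher with D-gal/LPS (log2 fold change 0.74 ± 0.21 SE, adjusted p = 0.0153), with libraries of D-gal/LPS alone above the control ones. How much ribosomal RNA each library kept was not measured here.

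1700020I14Rik, which RefSeq names Oip5os1, was among the 10 members with the highest mean CPM. It had 50.6, 48.6 and 54.1 CPM with WZB + D-gal/LPS, 51.8, 55.3 and 49.4 CPM with D-gal/LPS alone, and 54.4, 51.6 and 53.2 CPM in control livers. The groups overlapped, and edgeR's quasi-likelihood test called no difference, with adjusted p = 0.822 for D-gal/LPS against control and 0.61 for WZB + D-gal/LPS against control. The second of these was called when libraries were scaled by their totals (adjusted p = 0.0078) and with limma on log2 FPKM (0.0128). Tug1, a widely expressed regulator linked to p53, was lower with D-gal/LPS by a small amount (log2 fold change -0.38 ± 0.15 SE, adjusted p = 0.0478), a call lost in 9 of 18 settings, among them without control replicate 1 (adjusted p = 0.11) or 3 (0.114), D-gal/LPS replicate 1 (0.0892) or 2 (0.217), or WZB + D-gal/LPS replicate 3 (0.0508). 1810058I24Rik, which RefSeq lists as protein-coding, was lower with D-gal/LPS (log2 fold change -1.29 ± 0.11 SE, adjusted p = 2.17e-07), as was Cct6a, a chaperonin subunit gene (log2 fold change -0.37 ± 0.11 SE, adjusted p = 0.00883). Gm20319, which shares exons with Il1rap, an accessory chain of interleukin receptors, was higher with WZB before D-gal/LPS (log2 fold change 0.37 ± 0.10 SE, adjusted p = 0.0162), as Il1rap was (log2 fold change of 0.72 ± 0.10 SE, adjusted p = 0.000241), but its call was lost without D-gal/LPS replicate 1 (adjusted p = 0.0771) or 2 (0.0823) or WZB + D-gal/LPS replicate 2 (0.0773) and with total-count scaling (0.224).

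Proteins that degrade noncoding transcripts were also followed. Of 16 nuclear exosome subunits and adaptors tested, 9 were lower and 2 higher with D-gal/LPS, with a median log2 fold change of -0.55. Of all genes tested, 29.3% were lower and 29.1% higher, with a median of -0.03. Exosc4, a core subunit, had a log2 fold change -1.51 ± 0.20 SE, adjusted p = 2.19e-05, and Zfc3h1, which links the exosome to polyadenylated nuclear RNA, had a log2 fold change -0.92 ± 0.12 SE, adjusted p = 1.55e-05. Of 15 factors of nonsense-mediated decay, 8 were lower and 1 higher (median -0.44), with the helicase Upf1 at a log2 fold change -0.91 ± 0.10 SE, adjusted p = 3.01e-06. With WZB before D-gal/LPS, the exosome list had 1 higher and 1 lower, and the decay list had 1 lower, beside 13.8% higher and 14.7% lower of all genes.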

How the data were processed

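Total RNA of mouse liver was sequenced in 9 libraries, 3 for each of WZB + D-gal/LPS, D-gal/LPS and control. The authors deposited 1 table with raw read counts per gene and, per the file headers, FPKM values (fragments per kilobase of gene, scaled for depth) that the authors computed for the same libraries. The submitters' processing notes name the builds GRCm38.p4 and mm10, R 4.1.2 and limma. Nothing on the aligner, counter, annotation release or strand setting was given in the sources used here. The table also held 3 value columns, of 21, that matched no sample, and these were not used.

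Counts were tested with edgeR 4.0.16 in R 4.3.3: genes passing its default expression filter (13583 of 34745), TMM scaling, a quasi-likelihood fit over the 3 groups with 6 residual degrees of freedom, and Benjamini-Hochberg adjustment over all 13583 genes. A gene was called at an adjusted p under 0.05, and every adjusted p in the text comes from this test unless another tool is named. Per-library CPM are counts scaled to a common library size with TMM factors. Fold changes are first group over second. FPKM entered an alternative test with limma 3.58.1 on log2(FPKM + 0.1), and DESeq2 1.42.0 was another alternative. Shares of counts were compared by exact two-sided permutation tests. On simulated data for D-gal/LPS against control, with 13582 genes, the procedure recovered 71% of 100 genes changed by 1 on the log2 scale and 98% of 100 changed by 2, with 10 false calls. Far fewer genes were changed there than the 58.4% called in these data. The simulated WZB group was left unchanged, and each gene was given the trended spread for its level. The recovery and false calls therefore need not hold for these data.

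Coordinates and overlaps come from GENCODE M21 (GRCm38), and sequences and gene types from RefSeq (GRCm38.p6). The members and lists were chosen with earlier results of these data known. Members named were those on the lists of noncoding genes, the 10 largest rises and falls in each of the first comparisons among called members whose groups did not overlap, the 10 with the highest mean CPM, 6 called in opposite directions, and 3 on each side of the count minimum. Groups share replicate numbers, but none of the 9 same-numbered pairs had deviations correlated above 0.1 (range -0.067 to 0.042), so the numbers were not taken to pair libraries. Some results on neighbouring genes are not reported here.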

Additional observations from a re-analysis of the deposited data

How the results depend on the processing

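The counts of members called were recomputed under 8 changes of scaling, filter, tool, samples or unit, without each library, and for other choices of members. With at least 1000 counts required (63 members), 14 were higher and 23 lower with D-gal/LPS against control, and 23 were lower with WZB + D-gal/LPS against control. Among the 52 members overlapping no other gene, 12 were higher and 19 lower with D-gal/LPS against control, 8 higher and 4 lower with WZB added before D-gal/LPS, and 17 lower with WZB + D-gal/LPS against control. These choices leave fewer members to call. For WZB + D-gal/LPS against D-gal/LPS, total-count scaling gave 6 higher and 19 lower, and limma on log2 FPKM gave 8 higher. The cause was not tested. Leaving out 1 library gave 18 to 22 higher and 43 to 49 lower with D-gal/LPS against control, 7 to 17 higher and 9 to 18 lower with WZB added before D-gal/LPS, and 21 to 25 higher and 38 to 48 lower with WZB + D-gal/LPS against control. Without Malat1 the difference in share of counts turned to -0.011 percentage points with D-gal/LPS and to -0.0379 with WZB + D-gal/LPS, each against control.

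With the replicate number as a block there were 19 higher and 48 lower with D-gal/LPS against control, 13 and 12 between WZB + D-gal/LPS and D-gal/LPS, and 25 and 42 with WZB + D-gal/LPS against control, though the numbers did not pair the libraries. Calls lost under the block were those of Neat1 (adjusted p = 0.0693), Prox1os (0.057) and Gm26917 (0.0645) between WZB + D-gal/LPS and D-gal/LPS, and those of Snhg1 (0.0684) and Gm28177 (0.0951) with D-gal/LPS against control. Of 2961 values of the 55 named members under the alternatives, 2785 kept their side of the threshold, 129 lost a call and 47 gained one. Direction was followed only for values called in the main test, of which 0 reversed. The calls with WZB before D-gal/LPS of 0610005C13Rik (adjusted p up to 0.169), Prox1os (0.143), Fam120aos (0.0873) and 4930481A15Rik (0.0817) were among those lost. With 3 libraries a group and 15072509 to 18106895 counts each, changes under 2-fold in members of a few CPM may be missed.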
